A study of Sus scrofa with 9 samples.

Results

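The genes described here are interferon-stimulated genes, the antiviral and antigen-presenting programme that cells switch on when they receive an interferon signal. A list of 36 such genes was matched to the gene names of the deposited table, and 32 of them were found among its 30477 genes. XAF1 and IFIT3 matched no row by name. IFI6 and GBP1 did not either, but a gene name table pairs their names with rows that the authors left unnamed, and those rows are described separately and are not counted among the 32. Of the 32, 31 passed the filter on low values, as did 17884 genes in all. OASL did not, with 75 reads over all libraries.

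Type I interferons bind the receptor made of IFNAR1 and IFNAR2, whose kinases JAK1 and TYK2 phosphorylate signal transducers such as STAT2. STAT2 joins IRF9 in a complex that binds the promoters of genes such as MX1, ISG15 and the IFIT and OAS families. Interferon gamma acts through its own receptor and is known as the stronger inducer of IRF1, the guanylate-binding proteins and the class I peptide supply genes PSMB8, PSMB9 and TAP1. In vessel walls endothelium, smooth muscle, fibroblasts and resident or recruited leukocytes can all answer interferon.

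The samples were outflow veins of arteriovenous fistulas in pigs with a chronic kidney disease model. A fistula is the surgical join of an artery to a vein that provides access for dialysis, here between carotid artery and jugular vein. Kidney disease was induced 28 days before the fistula was made, and the veins were harvested 28 days after, in both groups. In the MSC group (6 libraries) mesenchymal stem cells from adipose tissue, in Ringer's lactate, were laid on the outer wall of the vein right after the fistula was made. In the control group (3 libraries) the vein was left untreated. The labels give neither the donor of the cells nor the age, breed or sex of the pigs, and they do not say that each library is a separate animal, so a p-value here weighs the groups against variation among libraries that may be technical. The name of control 2 carries the tags NT and F and that of MSC 1 the tags Allo and M, which the labels do not explain. The veins were sequenced as bulk tissue, so fewer cells of a type and less RNA per cell cannot be told apart.

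Levels are given as scaled RPKM, reads per kilobase of gene relative to the library's assigned reads, divided by 1 scaling factor per library. The libraries held 16939157 to 47417606 reads. MSC 2 was the shallowest and had a median gene level of 1.21 RPKM before scaling, against 0.0823 to 0.376 in the others. Genes of small non-coding RNA accounted for 53.3% of MSC 6 and 40.4% of control 2, against 6.75% to 16.4% in the rest. Of the 32 members, 17 overlap another row of the table, such as STAT2 with PAN2 and IRF9 with REC8. The sources used here do not say whether reads were counted by strand, so reads of overlapping genes may be mixed. Sequencing lane 7 held MSC 2, MSC 5 and MSC 6 and no control. Markers of the vein wall were present in every library, with summed levels of 27.8 to 106 for endothelial genes and 159 to 5263 for smooth muscle genes.

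The programme was not set at 1 level in MSC-treated veins: it stood far above every other vein in MSC 3. That library held the highest level of 30 of the 32 genes, while it was the highest library for 15.5% of all genes tested. All 32 were above every control there (32% of all genes tested). In 28 of the 32, MSC 3 was at least 2-fold above every other library (1.38% of all genes tested), and in 9 it was at least 5-fold above (0.207%); these counts include OASL. The median gene of the list was at 4.71 times the control mean in MSC 3, with a range from 1.67 times for IRF9 to 42.8 times for ISG15. IRF7 and IRF9 were the exceptions, with their highest level in MSC 5 (31.7% of all genes tested) and their second highest in MSC 3. That MSC 3 stands apart in interferon genes was known when the list was drawn up, so these counts describe the library and test nothing.

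**Figure D1:**
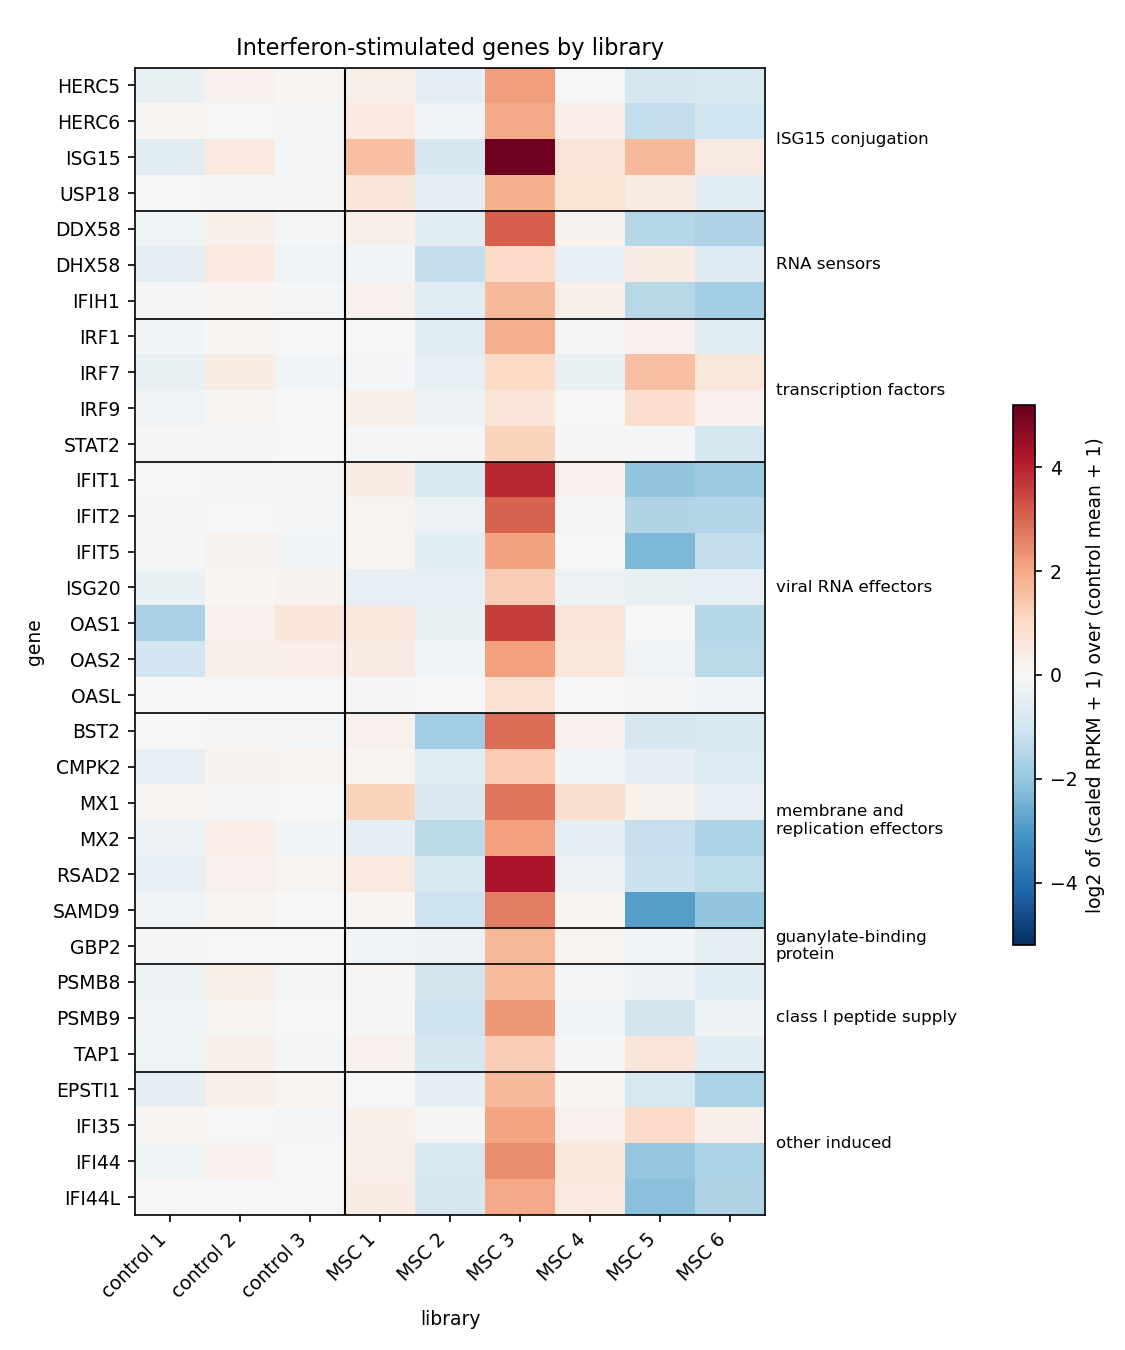
Each row is 1 of 32 interferon-stimulated genes, each column a library, and colour the log2 ratio of (scaled RPKM + 1) to the control mean (+ 1), red above and blue below it. The MSC 3 column is red throughout, and MSC 5 and MSC 6 are blue for most genes, while ISG15, IRF7, IRF9 and IFI35 are above the control mean in both.

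The controls, in contrast, were close to each other. Their highest value was at most 2-fold the lowest in 26 of the 32 genes, against 70% of all genes tested. The exceptions were ISG15, ISG20, OAS1, OAS2, IRF7 and DHX58. The coefficient of variation of a tested member had a median of 14.7% in controls and 110% in MSC veins (54.8% without MSC 3). Over all genes tested the medians were 21.7% and 62.4%. By the gap to the nearest library relative to the range, MSC 3 stood apart above the other 5 MSC libraries for 7 of the 31 tested members, the GBP1 row and OASL not counted. MSC 3 did so in 0.537% of all genes tested, and any 1 MSC library, above or below, in 19.8%.

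ISG15 is a ubiquitin-like protein that is joined to other proteins during an interferon response, and it was the tested member with the largest log2 fold change. It is encoded on chromosome 6 at 63363173 to 63364208 (ENSSSCG00000040575; positions throughout as the deposited table gives them). Its levels were 2.01, 5.40 and 3.19 scaled RPKM in controls 1 to 3. In the MSC libraries they were 12.3, 1.39, 151, 6.20, 13.5 and 5.33, in the order MSC 1 to MSC 6. MSC 1, MSC 3, MSC 4 and MSC 5 lay above all controls, MSC 2 below them and MSC 6 just under control 2, so the groups overlapped. The means were 3.53 ± 1.72 (SD, n = 3) and 31.6 ± 58.7 (SD, n = 6), and the MSC mean was 7.74 without MSC 3. MSC veins against controls gave a log2 fold change of 1.49 ± 1.03 (SE; limma adjusted p of 0.92). USP18, the protease that removes ISG15 and dampens the interferon receptor, was at 2.36, 2.13 and 2.48 in controls, and at 4.14, 1.40, 11.1, 4.38, 3.47 and 1.20 in MSC 1 to MSC 6. Here too the same 4 MSC libraries lay above every control and the other 2 below. HERC5, the ligase that attaches ISG15 in humans, averaged 3.06 ± 0.875 and 4.83 ± 6.26 scaled RPKM, with 17.4 in MSC 3 and at most 4.03 elsewhere. Its neighbour HERC6 was at 53.4 in MSC 3 and between 4.73 and 18.8 in the other libraries. The log2 fold changes of USP18 and HERC5 were 0.43 ± 0.49 and 0.08 ± 0.61 (SE), both with limma adjusted p-values of at least 0.92.

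DDX58 encodes RIG-I and IFIH1 encodes MDA5, the helicases that detect viral RNA in the cytoplasm, and DHX58 encodes their regulator LGP2. DDX58 (chromosome 10, 33865838 to 33933455) was at 5.51, 8.25 and 6.19 in controls and at 8.37, 4.18, 65.8, 7.71, 1.77 and 1.52 scaled RPKM in MSC 1 to MSC 6. MSC 3 held 9.89 times the control mean, while MSC 5 and MSC 6 were 3.76 and 4.37 times below it. IFIH1 showed the same order of libraries at its extremes, with 20.3 in MSC 3, 1.41 in MSC 5, 0.959 in MSC 6 and 5.32 to 6.12 in controls. DHX58 differed less, with 5.43 in MSC 3 against 3.50 in control 2 and 3.36 in MSC 5. The log2 fold changes between groups were 0.01 ± 0.88 for DDX58, −0.27 ± 0.66 for IFIH1 and −0.11 ± 0.46 for DHX58 (SE; limma adjusted p of 0.998, 0.929 and 0.953).

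Among the transcription factors, STAT2 and IRF9, which carry the type I signal, had the smallest ratios of MSC 3 to the control mean. STAT2, the type I signal transducer, was at 20.9, 19.0 and 20.8 scaled RPKM in controls, and at 19.1, 19.5, 45.8, 21.1, 19.3 and 10.3 in MSC 1 to MSC 6. It was thus flat in 7 libraries, 2.26 times the control mean in MSC 3 and 1.96 times below it in MSC 6. IRF9, the DNA-binding partner of STAT2, was at 4.35, 5.62 and 5.13 in controls and at 6.32, 3.98, 8.38, 5.18, 10.004 and 6.08 in MSC veins. MSC 5 was highest and MSC 3 second, and the groups overlapped through MSC 2 and MSC 4. IRF1, a factor induced by interferon gamma, was at 49.1 in MSC 3 and between 8.10 and 15.3 in the other 8 libraries. IRF7, which amplifies type I interferon production, was low throughout: 0.166, 0.977 and 0.366 in controls, 2.05 in MSC 3, 3.38 in MSC 5 and 1.26 or less in the others. The log2 fold changes were 0.02 ± 0.39 for STAT2, 0.30 ± 0.29 for IRF9, 0.13 ± 0.49 for IRF1 and 0.42 ± 0.43 for IRF7 (SE), with limma adjusted p-values from 0.92 to 0.992.

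The effectors that bind or destroy viral RNA had some of the steepest differences between libraries. IFIT1, whose protein holds back foreign capped RNA from translation, was at 7.56, 8.25 and 7.51 in controls (chromosome 14, 101214710 to 101249501). MSC 1 to MSC 6 were at 10.6, 4.05, 133, 9.21, 1.13 and 1.39 scaled RPKM. MSC 3 was 17.1 times the control mean, and MSC 5 was 6.89 times below it. RefSeq's Sscrofa11.1 annotation places IFIT3, which has no row by that name, inside the interval of the IFIT1 row, so the 2 genes' reads may not be separated there. IFIT2 and IFIT5, from the same cluster, were at 35.1 and 39.0 in MSC 3 and at 0.471 and 0.870 in MSC 5, with control means of 3.33 ± 0.210 and 8.40 ± 1.23 (SD, n = 3). All 3 IFIT rows thus had their highest level in MSC 3 and lay below the controls in MSC 5 and MSC 6. OAS1 and OAS2 make the oligoadenylate that activates an RNA-degrading enzyme. OAS1 was at 1.44, 8.18 and 11.1 in controls and at 10.5, 5.30, 95.7, 11.5, 7.12 and 1.85 in MSC 1 to MSC 6, so control 1 and MSC 6 were low together. OAS2 had the same low pair, 10.9 in control 1 and 7.96 in MSC 6, and 103 in MSC 3. The rows of OAS1 and OAS2 overlap and may share reads. ISG20, an RNA exonuclease, was at 2.47 in MSC 3 and at 0.612 or less in the other libraries, and OASL at 0.835 and at 0.123 or less. The log2 fold changes were −0.03 ± 1.10 for IFIT1, 0.80 ± 0.94 for OAS1 and 0.35 ± 0.66 for OAS2 (SE; limma adjusted p of 0.996, 0.92 and 0.921). The OAS1 value was 0.095 without control 1 and 0.18 without MSC 3.

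**Figure D2:**
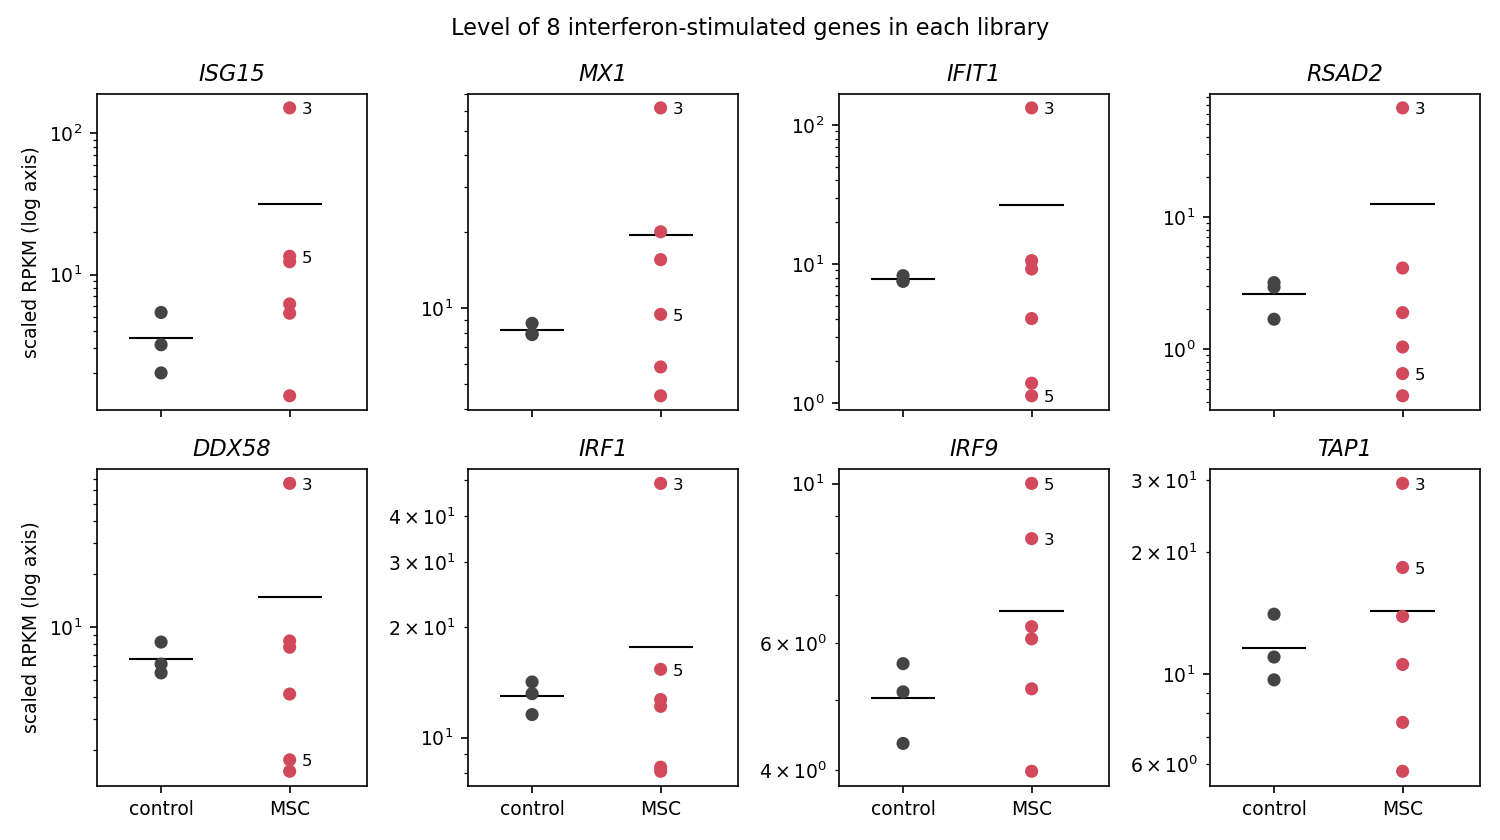
Points are the level of each of 8 genes in 3 control (grey) and 6 MSC (red) libraries, in scaled RPKM on log axes, horizontal lines are group means, and the digits mark MSC 3 and MSC 5. MSC 3 is the top point of every panel but that of IRF9, where MSC 5 is, at 10.004 scaled RPKM, and the controls lie within the MSC range in all panels.

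Effectors that act at membranes or on replication followed. MX1, a GTPase that traps incoming viral particles, was at 8.71, 7.86 and 7.91 in controls (chromosome 13, 204843754 to 204868922), and at 20.001, 4.51, 61.6, 15.5, 9.45 and 5.86 in MSC 1 to MSC 6. Its neighbour MX2 had another order: 6.28, 10.4 and 7.25 in controls and 5.47, 2.48, 38.0, 5.32, 2.95 and 1.86 in MSC veins. Every MSC library other than MSC 3 thus lay below every control for MX2, while 4 of 6 lay above for MX1. RSAD2, which encodes viperin, an enzyme that makes a chain-terminating nucleotide, was at 1.68, 3.18 and 2.94 in controls, 66.4 in MSC 3 and 0.445 to 4.10 in the other MSC veins. Its neighbour CMPK2, which supplies that enzyme's substrate, was at 10.8 in MSC 3 and at 1.83 to 4.39 elsewhere. For RSAD2 the MSC 3 level was 16.2 times that of the next library, the largest such ratio among the 32. BST2, or tetherin, which holds budding virus at the cell surface, was at 87.7 in MSC 3, 2.45 in MSC 2 and 10.4 to 11.6 in controls. SAMD9, a host restriction factor of poxviruses, was at 71.7 in MSC 3 and 0.571 in MSC 5, against 9.05 to 11.7 in controls. Both genes thus had close values among controls and a wide range in the MSC group. The row that the gene name table pairs with IFI6, a mitochondrial and endoplasmic reticulum protein, was at 62.9, 20.8 and 32.5 in controls and 132, 49.3, 609, 109, 20.8 and 42.0 in MSC veins. The log2 fold changes were 0.64 ± 0.66 for MX1, −0.49 ± 0.71 for MX2, 0.22 ± 1.05 for RSAD2, −0.02 ± 0.82 for BST2 and 1.27 ± 0.90 for IFI6 (SE), and their limma adjusted p-values ran from 0.92 to 0.996.

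The genes that interferon gamma is best known to induce had their highest level in MSC 3 as well. GBP2, a GTPase that attacks the membranes of intracellular microbes, was at 18.4 in MSC 3, between 3.20 and 5.38 in the other MSC veins and between 4.58 and 4.94 in controls. The row paired with GBP1 was at 4.84, 7.33 and 6.32 in controls and at 3.43, 2.53, 56.4, 4.44, 3.31 and 0.872 in MSC veins. As for MX2, the MSC libraries other than MSC 3 were below every control for GBP1. The GBP1 and GBP2 rows overlap, so their reads are uncertain. RefSeq's Sscrofa11.1 annotation places GBP1 inside the interval of the GBP2 row, so the name of the row paired with GBP1 is uncertain too. PSMB8 and PSMB9, subunits of the immunoproteasome, were at 17.8 and 22.8 in MSC 3 and at no more than 6.27 and 4.60 elsewhere. TAP1, a subunit of the transporter that brings peptides to class I molecules, was at 29.5 in MSC 3, 18.3 in MSC 5 and 5.76 to 14.0 in the other libraries. The rows of PSMB8, PSMB9 and TAP1 overlap each other on chromosome 7. The log2 fold changes were 0.13 ± 0.45 for GBP2, −0.28 ± 0.86 for GBP1, −0.02 ± 0.49 for PSMB8 and 0.11 ± 0.45 for TAP1 (SE; limma adjusted p from 0.94 to 0.994).

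Of the remaining members, IFI35, a leucine zipper protein that modulates the response, was the tested member with the smallest p. It was at 6.44, 5.90 and 5.55 in controls and at 7.34, 6.29, 27.8, 7.18, 13.0 and 7.35 in MSC 1 to MSC 6. All MSC libraries but MSC 2 were above every control, and MSC 2 was below control 1 only. On the log2 scale it differed by 0.65 ± 0.43 (SE; limma adjusted p of 0.92). IFI44 and IFI44L, neighbours on chromosome 6, were at 62.7 and 95.4 in MSC 3, at 1.95 and 4.44 in MSC 5, and averaged 10.8 ± 1.78 and 23.4 ± 0.183 in controls (SD, n = 3). EPSTI1, a gene found induced in epithelium next to stroma, was at 17.2 in MSC 3, 0.810 in MSC 6 and 3.07 to 5.80 in controls.

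Across the groups, no member passed the test. Of 17884 genes, 0% were called higher and 0% lower by limma at an adjusted p of 0.05, and 0 of the 31 tested members were. At an unadjusted p under 0.05, 0 members stood against 1.9% of all genes higher and 2.18% lower, and limma-voom on the recovered reads gave 0 members at either threshold (unadjusted, 2.18% of all genes higher and 2.39% lower). Of the 31, 16 had a positive and 15 a negative log2 fold change, against 55.3% positive over all genes. The median was 0.01, beside 0.04 for all genes tested, with a range from −0.51 to 1.49. In 0 of the 32 members did all MSC libraries lie above all controls, or all below (1.97% of all genes each way). The SE of a member was wide, with a median of 0.62 against 0.32 for all genes.

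The balance of signs rested on single libraries. Without MSC 5, and likewise without MSC 6, 25 of the 31 members were positive (52.6% and 56.1% of all genes). Without MSC 3, 24 of the 31 members had a negative log2 fold change and 7 a positive one, against 55.4% positive over all genes, and the median was −0.35. Again 0 members passed at an adjusted p of 0.05 (3 genes did among all, 0.00559% higher and 0.0112% lower), and 2 had an unadjusted p under 0.05, ISG20 and MX2, both lower (3.11% of all genes lower, 2.77% higher). For MX2 the MSC mean was 3.62 ± 1.67 (SD, n = 5) against 7.99 ± 2.17 in controls. The difference was −1.01 ± 0.35 on the log2 scale (SE; limma adjusted p of 0.679). In lanes 5 and 6 alone, which hold the 3 controls, MSC 1, MSC 3 and MSC 4, all 31 were positive (48.9% of all genes), with a median of 0.85. In these lanes 0 members passed an adjusted p of 0.05 (0.0112% of all genes each way), and 2 had an unadjusted p under 0.05, MX1 and USP18, both higher (5.63% of all genes higher, 6.6% lower).

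**Figure D3:**
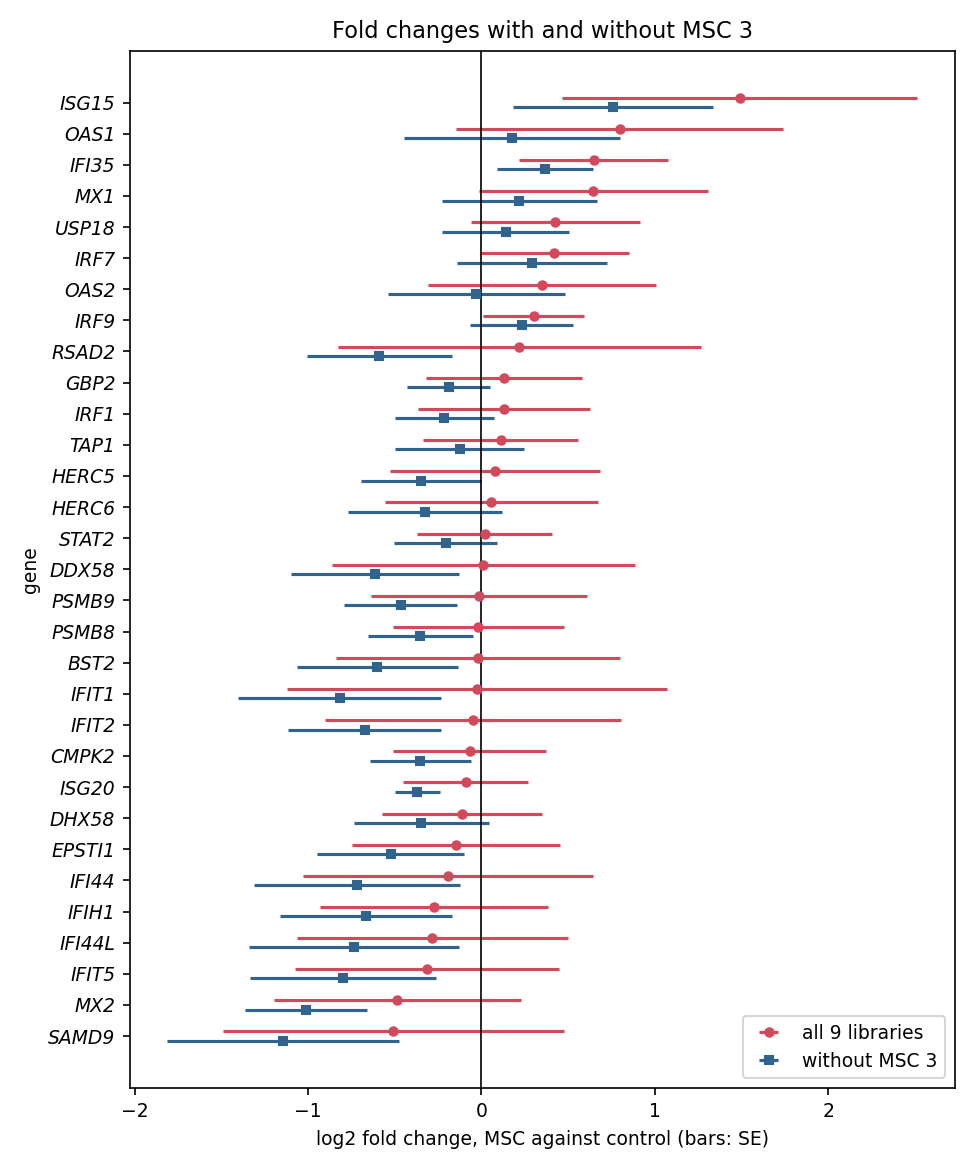
Points are log2 fold changes of the 31 tested members, MSC against control, with SE bars, for all 9 libraries (circles) and without MSC 3 (squares), sorted by the former. The values run from −0.51 to 1.49 with all libraries, and 24 of 31 are below 0 without MSC 3.

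Levels above the controls were also seen, for fewer members, in MSC 1 and MSC 4, the other MSC libraries of lanes 5 and 6. MSC 1 lay above every control for 16 of the 32 members (25.1% of all genes tested) and MSC 4 for 14 (28.2%). Both did so for 11 of the 32 members, ISG15, MX1, USP18, HERC6, OAS2, IFIT1, IFIH1, BST2, IFI35, IFI44 and IFI44L, against 16.7% of all genes tested. In a fit of these lanes without MSC 3, chosen after the data were seen, 22 of 31 members were positive (47.9% of all genes) with a median of 0.12. The smallest limma adjusted p of a member was 0.0606, for MX1, at 1.03 ± 0.15 on the log2 scale (SE), and USP18 followed with 0.122, at 0.66 ± 0.14. At an unadjusted p under 0.05 there were 5 members, all higher, against 7.62% of all genes higher and 6.58% lower. At an adjusted p of 0.05 there were 0 members, against 0.598% of all genes higher and 0.173% lower. This fit rests on 2 MSC libraries.

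MSC 2, MSC 5 and MSC 6, the libraries of lane 7, were below the controls for most members. MSC 6 was below every control in 27 of 32 (42.7% of all genes tested), MSC 2 in 26 (34.5%) and MSC 5 in 20 (44.2%). MSC 5 and MSC 6 were both below every control in 20 members, against 31.4% of all genes. The lowest library of a member was MSC 6 in 12 genes (14.9% of all genes tested), MSC 2 in 10 (9.15%) and MSC 5 in 8 (31.8%). In MSC 5 the largest ratio below the control mean was that of SAMD9, at 18.3 times, and in MSC 6 SAMD9 was 5.85 times below. MSC 5 did not lie low for all members, though. It was above every control for 8, ISG15, USP18, MX1, IRF1, IRF7, IRF9, TAP1 and IFI35 (42.5% of all genes tested), and held 6.73 times the control mean of IRF7. MSC 6 was above every control for 3 of these, IRF7, IRF9 and IFI35 (39.3%), and MSC 2 for 0 members (35.1%). Members that were all above the controls in MSC 3 were thus divided in MSC 5 into 8 above them, 20 below them and 4 within their range, OAS1, OAS2, STAT2 and DHX58. The summed level of 4 general leukocyte genes was 44.4, 31.9 and 34.3 in MSC 2, MSC 5 and MSC 6 against 87.2 to 99.8 in controls. That of T and NK cell genes was 5.70, 20.7 and 11.3 against 22.0 to 35.9. In MSC 6 the sum was 302 for macrophage and monocyte genes (controls 142 to 224) and 229 for B and plasma cell genes (32.7 to 73.1). For plasmacytoid dendritic cell genes it was 180 (43.0 to 48.8), but IRF8 alone, also a pathway gene, held 159 of it (controls 7.36 to 15.6). The neutrophil sum in MSC 6, 1.35, lay within the control range (1.06 to 5.22). The sum of 6 smooth muscle genes was 671, 5263 and 4754 in MSC 2, MSC 5 and MSC 6 against 382 to 491 in controls, and it was 1727 in MSC 1 and 757 in MSC 4. The part of these markers, of lane and of library composition in the levels was not tested.

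**Figure D4:**
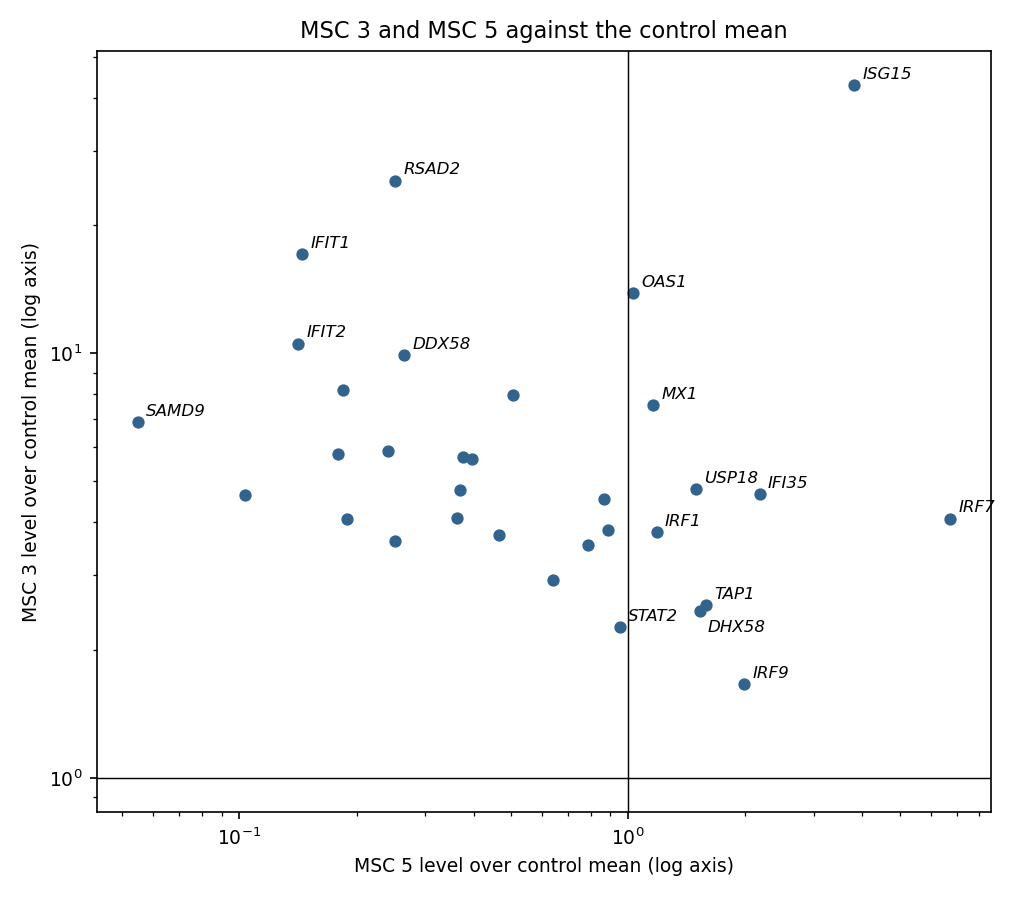
Each point is 1 of 32 genes, placed by its level in MSC 5 (horizontal) and MSC 3 (vertical) over the control mean, both on log axes, with lines at a ratio of 1. All points lie above the horizontal line, up to 42.8 for ISG15, while along the horizontal axis they spread from 0.0548 for SAMD9 to 6.73 for IRF7.

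Genes of the pathway outside the list were followed in 6 groups, with 69 of 98 listed names found and tested. By limma at an adjusted p of 0.05, 0 were called higher and 0 lower (0% of all genes each way). The log2 fold change was positive for 40 and negative for 29, against 55.3% positive over all genes. Its median was 0.07, beside 0.04 for all genes tested. MSC 5 was the highest library for 16 of the 69 (31.7% of all genes tested) and MSC 3 for 47 (15.5%). MSC 3 was highest for 24 of 27 further interferon-stimulated genes and 7 of 7 genes of the class I pathway. In those 2 groups the genes with the smallest p were LAP3, an aminopeptidase, at 0.92 ± 0.40 (SE), WARS1, a tRNA synthetase, at 0.47 ± 0.39, and the proteasome activators PSME2 and PSME1 at 0.40 ± 0.44 and 0.22 ± 0.38. Among receptors and kinases MSC 3 was highest for 5 of 11 and MSC 5 for 3. Among sensing genes the numbers were 6 and 7 of 15, and among negative regulators 4 and 3 of 7. There the smallest p-values belonged to IFNLR1 and IL10RB, subunits of the interferon lambda receptor (0.26 ± 0.20 and −0.29 ± 0.22), to the factor IRF8 and the kinase TBK1 (1.12 ± 0.76 and −0.72 ± 0.56), and to TRIM21 and PIAS1 (0.55 ± 0.32 and −0.46 ± 0.53). All had a limma adjusted p of 0.92. CXCL10, the chemokine most used as an interferon readout and named here for its values, was at 258 in MSC 3, 4.63 to 8.75 in controls and 0.256 to 4.33 in the other MSC veins.

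Transcripts of interferon beta and gamma were scarce. IFNB1 had 2 reads in MSC 2, 2 in MSC 3 and 0 in the other 7 libraries. IFNG had 41 reads in MSC 3 and 1 to 13 in the others, or 1.33 scaled RPKM against at most 0.370, with a log2 fold change between groups of 0.03 ± 0.23 (SE; limma adjusted p of 0.975). IFNE, an epithelial type I interferon, had no excess in MSC 3 (0.645 scaled RPKM). It averaged 3.44 ± 2.76 in controls and 0.863 ± 0.597 in MSC veins, with a log2 fold change of −1.12 ± 0.41 (SE) and a limma adjusted p of 0.92. Control 3, at 6.45, carried much of it: without that library the value was −0.65, and with 1 library left out it ran to −1.59, without control 1.

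Some marker genes of leukocytes were also highest in MSC 3, which was the highest library for 15.5% of all genes tested. The sum of the 4 general leukocyte genes was 175 in MSC 3 and no more than 99.8 in any other library. MSC 3 held the highest level of 3 of these 4 genes, of 5 of 7 macrophage and monocyte genes (sum of 475, controls 142 to 224) and of 5 of 8 T and NK cell genes (sum of 46.3, controls 22.0 to 35.9). The macrophage and monocyte sum was above the controls in MSC 6 too, at 302, where most members were below them. MSC 3 was highest for 0 of the 7 B and plasma cell genes. It was highest for 0 of the 4 plasmacytoid dendritic cell genes found, LILRA4 and IL3RA having no row by name. For neutrophils it was highest for 0 of the 3 genes found, with a sum of 3.13 (controls 1.06 to 5.22). MSC 3 also had the lowest sum of 6 smooth muscle genes, 159. Outside leukocytes, MSC 3 was highest for 3 of 6 fibroblast genes, 1 of 5 endothelial genes and 0 of 6 smooth muscle genes. The sum of 4 surface markers used to define mesenchymal stem cells, which other vein wall cells also express, was 138 in MSC 3, 122 to 174 in controls and 77.6 to 388 in the MSC group. Markers with 0 reads in some library were MPO, TNFRSF17 and SPIB. The part of cell composition in the interferon gene levels was not tested.

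The 10 genes outside the list whose levels followed it most closely across the 9 libraries had a Pearson r with the mean z-score of the tested members from 0.957 to 0.995 and a Spearman rho from 0.783 to 0.933. These are descriptions, given without p, since MSC 3 dominates them and the genes share libraries and depth. Over the 8 libraries without MSC 3, r ran from 0.826 to 0.978. First stood FBXO39, an F-box gene, at 14.5 scaled RPKM in MSC 3 and at most 3.10 elsewhere. It overlaps 3 other rows, so its reads are uncertain. ZNFX1 and DDX60, from the lists of pathway genes, were also among the 10, as were TBXAS1, ETV7 and 4 rows without a symbol.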

How the data were processed

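Libraries of 9 pig veins were made with the TruSeq V2 kit, each from 0.5 µg RNA, as the labels' protocols state. The authors deposited RPKM values for 30477 genes, with the unit read per the file headers; aligner, counter and strand are not given in the sources used here, and the submitters' processing notes list susScr11 and mm10 without a role. Multiplied by gene length plus 1, all values came within 0.01 of whole reads, which gave depths of 16939157 to 47417606. Their number limits the precision of low levels: 1 read in a gene of 2 kilobases is worth 0.0105 to 0.0295 RPKM.

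RPKM was divided by trimmed-mean-of-M factors (trims 0.3 and 0.05) from the recovered reads, computed in Python 3.11.15. A gene was tested if 3 libraries or more held at least 10 reads at the median depth and all libraries together held 15. The test was limma 3.58.1 (R 4.3.3) with a variance trend on log2(scaled RPKM + 1), all 9 libraries, no covariate, Benjamini-Hochberg adjustment over 17884 genes and a threshold of 0.05. Fold changes on this scale understate those of low genes. The fit was tested on simulated reads with known changes. Alternatives were other scalings, pseudocount 0.1, no filter, limma-voom on recovered reads, lanes 5 and 6, the replicate block and left-out libraries.

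Symbols came from the table, and 785 of 14012 unnamed rows took one from a gene name table. Of the 32 members, 30 overlapped a RefSeq gene of the same symbol, and 17 overlap another row of the table. Members, lists and tests were chosen with earlier results of these data known. Full statistics are given for 23 genes chosen by role, and for the 2 genes of each pathway list with the smallest p; CXCL10 was named after its values were seen. Other pathway genes are given by counts. Promoter motifs were not analysed here.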

Additional observations from a re-analysis of the deposited data

Results flagged for a closer look

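Within the 6 MSC libraries, 1 library lay far from the other 5 on the log2(scaled RPKM + 1) scale for 9 of 34 genes, the 32 members and the IFI6 and GBP1 rows. In all 9 that library was MSC 3, above the others. The nominal rate of such flags is about 1 in 20 groups, but over all genes tested 1 MSC library was so placed in 19.8%. MSC 3 was so placed above the others in 0.537%. That MSC 3 stands apart in interferon genes was known when the list was drawn up, and the genes share libraries. These flags thus describe MSC 3 and test nothing. The MSC 3 levels were 66.4 scaled RPKM for RSAD2, 56.4 for GBP1, 49.1 for IRF1, 38.0 for MX2, 35.1 for IFIT2, 22.8 for PSMB9, 18.4 for GBP2, 2.47 for ISG20 and 0.835 for OASL. The 3 controls were too few for this check.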

How the results depend on the processing

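In every alternative run, 0 members and 0 other pathway genes passed. MSC 3 was highest for 30 to 32 of the 32 members under other scalings and with each other library left out. Members with a positive fold change numbered 16, 7 to 25 with 1 library left out (7 without MSC 3, 25 without MSC 5 or MSC 6), 31 in lanes 5 and 6 and 30 with the replicate block. MSC 4, MSC 5 and MSC 6 have no control of the same number. The group difference with the replicate block thus rests on MSC 1, MSC 2, MSC 3 and the controls alone. Called genes among all numbered 0, 0 to 22 with 1 library left out (22 without control 1, 3 without MSC 3, 1 without MSC 2), 4 in lanes 5 and 6 and 138 there without MSC 3. No setting moved the median of all genes by over 0.1. The labels give no pairing of libraries by replicate number. Deviations of same-numbered libraries from their group means correlated at 0.217, −0.523 and −0.141, and not every library correlated best with its own number. With 3 controls, these correlations cannot exclude a pairing. Without MSC 3 the log2 fold changes of ISG15, IFI6, MX1, USP18 and IFI35 kept their sign at 0.76, 0.70, 0.22, 0.14 and 0.37. IRF7 was 0.19 without MSC 5, IRF8 0.60 without MSC 6, and IFNE −1.85 with a pseudocount of 0.1 and −1.91 by limma-voom. The cause of these changes and of the changes of sign below was not tested.

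Log2 fold changes changed sign as follows. Median-of-ratios scaling gave IFIT1 0.0076, BST2 0.017 and PSMB8 0.018, and no scaling gave DDX58 −0.048, STAT2 −0.14, IRF1 −0.021 and TAP1 −0.040. A pseudocount of 0.1 gave DDX58 −0.10, RSAD2 −0.047 and IFNG −0.19, and limma-voom DDX58 −0.035, PSMB8 0.013 and IFNG −0.36. Lanes 5 and 6 gave IFIH1 0.72, DHX58 0.20, IFIT1 1.52, MX2 0.41, BST2 1.12, GBP1 0.65, PSMB8 0.55, TBK1 0.035 and PIAS1 0.16. The replicate block gave IFIH1 0.44, IFIT1 1.18, MX2 0.12, BST2 0.44, GBP1 0.44 and PSMB8 0.27. Without control 2 and MSC 1 together, DHX58 was 0.16, STAT2 −0.0060 and PSMB8 0.10. Lanes 5 and 6 without MSC 3, chosen after seeing the data, gave IFIH1 0.23, STAT2 −0.0061, IRF1 −0.052, IRF7 −0.18, IFIT1 0.31, BST2 0.23, GBP2 −0.011, IFNG −0.13 and PIAS1 0.083. With 1 library left out the ranges were −0.35 to 0.27 for HERC5, −0.61 to 0.33 for DDX58, −0.089 to 0.68 for OAS2, −0.13 to 0.31 for TAP1, −0.35 to 0.16 for DHX58, −0.21 to 0.20 for STAT2, −0.82 to 0.38 for IFIT1, −0.60 to 0.34 for BST2, −0.35 to 0.17 for PSMB8, −0.21 to 0.28 for IRF1, −0.59 to 0.52 for RSAD2, −0.19 to 0.25 for GBP2, −0.67 to 0.022 for IFIH1, −0.14 to 0.091 for IFNG and −0.94 to 0.047 for GBP1.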

Other observations

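MSC 3 was at least 5-fold above every other library for 37 of 17884 genes, and 16 of these belonged to the interferon genes described above: 8 tested members, 7 genes of the pathway lists (CXCL10, CXCL11, CXCL9, IDO1, UBE2L6, DDX60 and PARP14) and the GBP1 row. Another 9 had no symbol. Among the other 12, chosen here after their values were seen, were TNFSF18, a ligand of the tumour necrosis factor family, at 87.9 scaled RPKM in MSC 3, 55.3 times the next library, and GZMA, a protease of cytotoxic cells, at 20.9 and 10.1 times. CASP1, which matures interleukin 1, was at 22.6 and 6.29 times, and UBD, a ubiquitin-like protein induced by inflammatory cytokines, at 35.7 and 5.32 times. CCDC194, also among the 12, overlaps the row of BST2. These are values of 1 library, with no test.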
